A study of Mus musculus with 23 samples.

Results

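Heme is built from glycine and succinyl-CoA in a fixed chain of enzymes, and 9 genes of that chain and of porphyrin export were followed in 2 glands and the eyelid of the mouse. They were Alas1, Alas2, Alad, Uros, Urod, Cpox, Ppox, Fech and Abcg2. A probe was taken for a gene when the RefSeq accession the array gives for it belongs to that symbol. This gave 10 probes, 2 for Alas1 and 1 for each other gene, among 26056 probes with a symbol, and the 9 genes are 9 of 15814 genes measured. All 10 probes were well above background on all 23 arrays.

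The groups came from mice of the strain labelled B6/CL, and the labels name no mutation or treatment. Whole harderian gland (HG, 3 arrays) and whole lacrimal gland (LG, 2 arrays) were taken at 7 weeks. At embryonic day 16.5, the epithelium of HG, LG and eyelid with its conjunctiva was parted from the mesenchyme, which gave 6 groups of 3 arrays. An adult gland holds all its cell types, whereas an embryonic sample holds 1 compartment, so age and makeup cannot be told apart in a comparison of both ages. In such bulk RNA, fewer cells of a type and less RNA per cell cannot be told apart either. Neither sex nor the number of animals behind an array is given in the labels, so each p-value rests on array-to-array spread, which may be technical.

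Alas1, the housekeeping form, and Alas2, the erythroid form, catalyse the rate-limiting first step in the mitochondrion and make 5-aminolevulinic acid. Alad, Uros and Urod act on the way from it to coproporphyrinogen in the cytosol, Cpox and Ppox oxidise that to protoporphyrin IX back in the mitochondrion, and Fech inserts ferrous iron to give heme. Abcg2 is an efflux pump of the plasma membrane that carries protoporphyrin, among many other substrates. The rodent harderian gland, a lipid-secreting gland behind the eye, is known for storing and secreting porphyrin, whereas the lacrimal gland makes the watery, protein-rich part of tears. Where free porphyrin could collect depends on enzyme activity and transport, and the arrays measured only mRNA.

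Promoter stretches of 4 genes are shown because their genes mark different patterns in these data: Alas1 and Urod, which differed most between adult and embryonic HG among the enzymes, Alad, which differed most between the adult glands among the enzymes of the set, and Alas2, which moved with erythroid markers. The stretches are from RefSeq, build GRCm38.p6, read 5′ to 3′ on the gene's strand, with the motif match in capitals.
Alas1, chr9:106247906-106247935, minus strand: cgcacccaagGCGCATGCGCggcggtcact
Alas2, chrX:150547297-150547416, plus strand: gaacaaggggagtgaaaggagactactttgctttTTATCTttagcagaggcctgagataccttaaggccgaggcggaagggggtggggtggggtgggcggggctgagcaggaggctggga
Alad, chr4:62520064-62520183, minus strand: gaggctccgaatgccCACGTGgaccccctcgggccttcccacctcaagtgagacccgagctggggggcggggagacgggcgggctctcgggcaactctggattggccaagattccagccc
Urod, chr4:116994414-116994533, minus strand: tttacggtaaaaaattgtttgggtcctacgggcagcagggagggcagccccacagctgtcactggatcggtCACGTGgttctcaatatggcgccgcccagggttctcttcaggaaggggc
The search covered 3 motifs on both strands in windows of 300 bases, 250 before to 50 after each annotated start, in 13 windows of 8 of the 9 genes. The NRF1 palindrome, GCGCA followed directly by its reverse complement, lies at position -195 from the downstream start of Alas1 and 30 from the upstream one, and in no other window of these genes. It is present in 0.971 percent of all 32851 windows. The GATA motif, spelled as A or T, then GATA, then A or G, is present in 29.8 percent of all windows, and the Alas2 stretch holds it as TTATCT on the opposite strand, at position -86 from the start. Cpox holds 3 such matches and 1 window of Uros holds 2. The E-box CACGTG, which was chosen after the windows had been seen, is present in 7.15 percent of all windows. It lies at position -105 from 1 start of Alad and -28 from the other, -49 from that of Urod and -250 from 1 start of Uros. These matches are letters in a window, and the binding of a factor was not measured.

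Between 42.4 and 64.6 percent of the spots of an array were well above background, the lowest share being that of an adult LG array. Sums of the marker genes followed the labels: the log2 of the summed signal of lacrimal acinar markers was 4.74 to 7.16 in adult HG and 12.02 to 12.48 in adult LG, and that of lipid synthesis genes was 12.1 to 12.7 in adult HG and 6.04 on both adult LG arrays. Epithelial markers summed to 8.52 to 10.4 in the embryonic epithelia and to 2.79 to 4.73 in HG and LG mesenchyme, but to 6.66 to 7.95 in eyelid mesenchyme. Mesenchymal markers summed to 7.10 to 8.28 in the embryonic epithelia and to 10.7 to 11.3 in the mesenchymes. The adult HG arrays differed among themselves. Replicate 1 had the highest skeletal muscle sum (6.03, against 2.55 and 0.48), the highest immune sum (7.57) and the highest mesenchymal sum (9.40), and replicate 3 had the lowest erythroid sum (6.74, against 9.01 and 8.65). Endothelial sums were 5.04 to 6.19 in adult HG and 4.62 to 5.31 in adult LG, and adipocyte sums 6.43 to 7.02 in adult HG and 2.04 to 3.58 in adult LG. Of 6 measured adipocyte markers only Pck1 was called between the adult glands, averaging 6.68 in HG and -3.82 in LG. The median difference of the adipocyte list was -0.54, so its sums do not show more fat cells in adult HG.

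**Figure D1:**
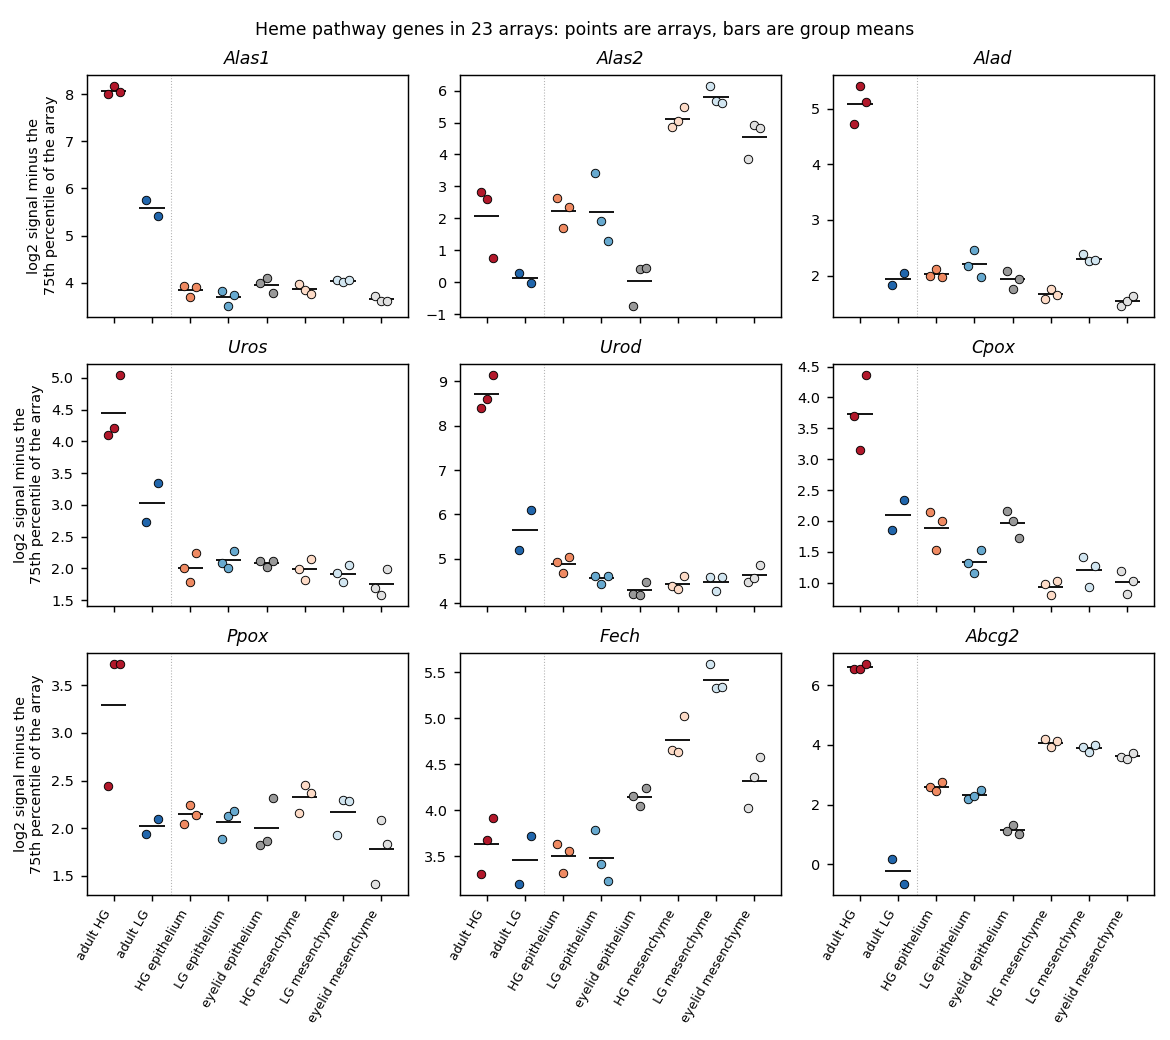
Levels of the 9 genes on each of 23 arrays, 1 panel per gene in pathway order. The vertical axis is log2 signal minus the 75th percentile of the array and differs between panels, points are arrays, horizontal bars are group means, and the dotted line parts adult from embryonic groups. Adult HG stands above every other array for Alas1, Alad, Uros, Urod, Cpox and Abcg2, whereas Fech and Alas2 were highest in mesenchyme.

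In adult HG against adult LG, 8 of the 9 genes were higher, 0 were lower, and Fech alone was not called. Abcg2 showed the widest difference, followed by Alad, Urod and Alas1. Of all 15814 genes, 55.9 percent were called in this comparison, 33.6 percent higher and 22.3 percent lower, with limma's moderated test and an adjusted p under 0.05. The median log2 difference was 1.92 over the 9 genes and 0.14 over all genes, and 57.6 percent of all genes had no overlap between the arrays of the 2 glands. All levels below are log2 signal relative to the 75th percentile of the array, and differences are log2 differences with their standard error.

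The first step was read by 2 probes for Alas1. The brighter probe of Alas1 gave 8.0, 8.18 and 8.04 in adult HG, against 5.76 and 5.41 in adult LG. The difference was 2.49 ± 0.14, which is 5.62-fold, with an adjusted p of 6.49e-11. The other probe gave 2.85, 3.19 and 2.94 in adult HG, against 0.94 and -0.06 in adult LG, a difference of 2.55 ± 0.21. Both probes had every HG array above both LG arrays and differed between the glands by nearly the same amount.

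The erythroid form behaved less evenly. Alas2 gave 2.82, 2.61 and 0.74 in adult HG, against 0.30 and -0.02 in adult LG. The groups did not overlap, but replicate 3 of HG lay close to the LG arrays, and it was also the HG array with the lowest hemoglobin alpha signal (Hba-a1 8.36, 7.97 and 5.10 in HG, against 5.36 and 4.82 in LG). The difference of 1.92 ± 0.60 had an adjusted p of 0.0111 and was 2.58 without HG replicate 3. It was not called without LG replicate 2 (adjusted p 0.071) or with only these 2 groups in the fit (adjusted p 0.0566), and within slides it was 2.32 on slide 2 and 0.76 on slide 3. The erythroid sum was 6.74 to 9.01 in adult HG and 6.91 to 7.01 in adult LG, with 8 to 12 of 19 markers well above background on HG arrays and 5 to 7 on LG arrays. Of those markers 4 were higher and 2 lower in adult HG. The part of blood in the Alas2 difference was not tested.

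Among the enzymes of the set, the differences were largest for Alad and Urod, both of the cytosol. Alad, which joins 2 molecules of 5-aminolevulinic acid into porphobilinogen, gave 4.72, 5.41 and 5.11 in adult HG, against 1.84 and 2.05 in adult LG. The difference was 3.14 ± 0.18, or 8.80-fold (adjusted p 4.87e-11). The lowest HG array stood well above the higher LG array.

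Uros, which closes the ring, gave 4.10, 4.21 and 5.05 in adult HG, against 2.72 and 3.34 in adult LG. The difference was 1.42 ± 0.24, or 2.68-fold (adjusted p 7.31e-05), set beside 3.07 for Urod, a contrast that was not tested. Urod, which removes carboxyl groups from the ring, gave 8.41, 8.61 and 9.15 in adult HG, against 5.21 and 6.10 in adult LG, a difference of 3.07 ± 0.24 or 8.38-fold (adjusted p 3.93e-09). Neither gene overlapped between the glands, and HG replicate 3 was the highest array for both.

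Of the mitochondrial oxidases, Cpox gave 3.70, 3.15 and 4.37 in adult HG, against 1.86 and 2.33 in adult LG. The difference was 1.64 ± 0.28, or 3.12-fold (adjusted p 6.96e-05). Ppox gave 2.44, 3.73 and 3.72 in adult HG, against 1.94 and 2.09 in adult LG, a difference of 1.28 ± 0.30 or 2.43-fold (adjusted p 0.00132). HG replicate 1, the array with the highest skeletal muscle, immune and mesenchymal sums, was the low array for Ppox. The Ppox difference was 1.78 within slide 2 and 1.63 within slide 3, which do not hold that array, but it was not called with only these 2 groups in the fit (adjusted p 0.0777).

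Fech, the last enzyme, gave 3.31, 3.67 and 3.91 in adult HG, against 3.20 and 3.72 in adult LG. The arrays of the 2 glands overlapped. The difference was 0.17 ± 0.22, with a 95% confidence interval of -0.29 to 0.64 and an adjusted p of 0.525. Its sign was not stable: it was -0.15 with quantile normalization and -0.08 without LG replicate 1, and 0.42 with normexp background correction. The interval holds differences in either direction. Its upper end of 0.64 lies below the intervals of the other 7 enzymes of the set. The nearest, those of Alas2 and Ppox, begin at 0.66, so the gap to them is small and is given for the main fit only.

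Abcg2 gave 6.54, 6.57 and 6.73 in adult HG, against 0.18 and -0.66 in adult LG. The difference of 6.85 ± 0.19 is 115-fold (adjusted p 5.63e-15), and it was 6.38 within slide 2 and 7.38 within slide 3. The 3 HG arrays were closer to each other than the 2 LG arrays. Abcg2 is also made by endothelium, whose markers were higher in adult HG for 8 of 12 genes and lower for 1, with sums of 5.04 to 6.19 in HG and 4.62 to 5.31 in LG. Mesenchymal markers were higher in adult HG for 11 of 14 genes and lower for 0, with sums of 8.34 to 9.40 in HG and 7.28 to 7.47 in LG. The part of these cells in the Abcg2 difference was not tested.

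**Figure D2:**
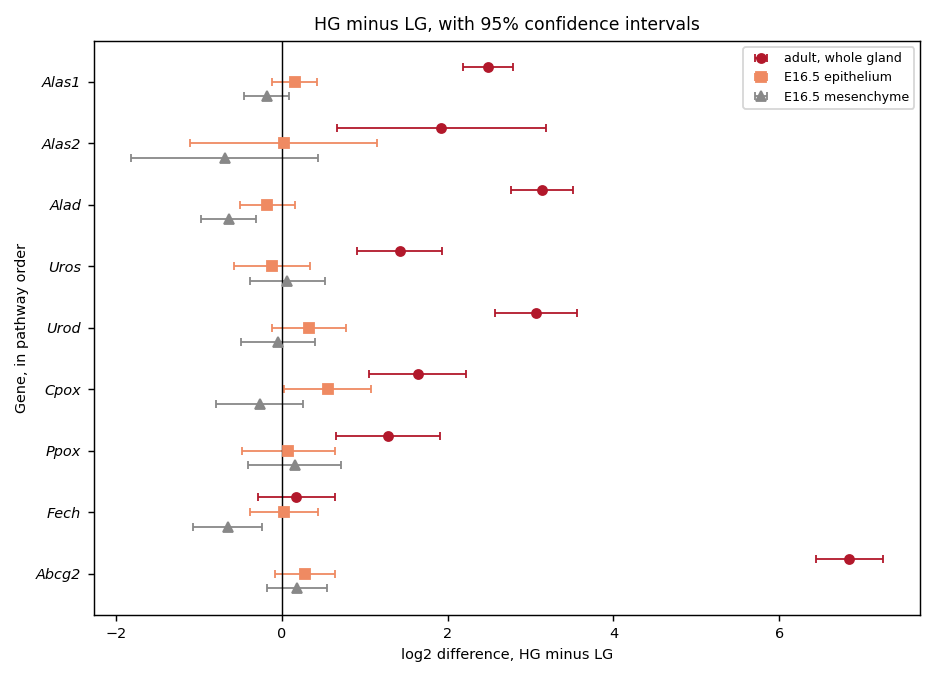
Differences between HG and LG for each gene of the chain and Abcg2, as log2 HG minus LG on the horizontal axis, for adult glands, embryonic epithelium and embryonic mesenchyme, with 95% confidence intervals from the fit. In adult glands all genes but Fech lie to the right of 0, with Abcg2 at 6.85, whereas the widest difference between embryonic epithelia is 0.55, for Cpox.

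A difference of 2 probes on the same array does not depend on the scaling between arrays, so each step was also set against Fech within arrays, and only the change of that difference between groups was read. In adult HG against adult LG that difference was larger without overlap between the arrays for 6 of 7 enzymes, and for Alas2 the arrays overlapped (1.75, exact p 0.3). It was larger by 2.32 for Alas1, 2.96 for Alad, 1.25 for Uros, 2.89 for Urod, 1.47 for Cpox and 1.11 for Ppox. An exact two-sided permutation test over 3 against 2 arrays cannot go below 0.1. It gave 0.1 for Alas1, Alad, Uros and Urod and 0.2 for Cpox and Ppox, or 0.129 and 0.225 after Benjamini-Hochberg adjustment over 18 such tests. Compared with embryonic HG epithelium, the change in adult HG was 1.02 for Ppox to 4.10 for Alas1, again positive without overlap for 6 of 7 enzymes, each of the 6 with the smallest exact p of 0.1, whereas Alas2 gave -0.29 with overlap (exact p 0.9). The share of all genes without overlap was not computed for this measure. For plain levels it was 57.6 percent between the adult glands and 68.1 percent between adult HG and embryonic HG epithelium. Fech was not called in either comparison, so these values largely repeat the differences of the plain levels.

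The carriers and partners of the chain moved in both directions between the adult glands. Of 16 other heme pathway genes, 9 were higher and 4 lower in adult HG, with a median difference of 0.52. The highest were Tmem14c (3.07 ± 0.21), which is needed for protoporphyrinogen to enter the mitochondrial matrix in erythroid cells, Tspo (2.73 ± 0.21), a porphyrin-binding protein of the outer mitochondrial membrane, and Iscu (0.93 ± 0.23), the scaffold of iron-sulfur cluster assembly. The lowest were the mitochondrial iron importers Slc25a37 (-1.62 ± 0.30) and Slc25a28 (-0.90 ± 0.14), and the porphyrin transporter Abcb6 (-1.58 ± 0.16). Tmem14c and Tspo thus differed in the opposite direction to the mitochondrial iron importers, whereas the porphyrin transporter Abcb6 was lower like the importers.

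Of 18 heme and porphyrin handling genes, 11 were higher and 4 lower in adult HG, with a median of 1.41. Hebp1 (4.65 ± 0.19) and Hebp2 (3.82 ± 0.25), which bind heme, and Slc46a1 (3.77 ± 0.18), a folate transporter also described as a heme carrier, were the highest. Flvcr2, a choline transporter first described as a heme importer, was lower (-4.89 ± 0.35), averaging -3.86 in HG, where 1 of 3 arrays was well above background, and 1.03 in LG, so the size of its difference is uncertain. The drug efflux pumps Abcb1a (-3.14 ± 0.42) and Abcb1b (-1.68 ± 0.43) were lower too.

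Of the 16 iron supply genes, 15 were measured, and 9 were higher and 2 lower in adult HG, with a median of 0.96. Tfr2, the second transferrin receptor, was not well above background on either LG array and averaged 1.25 in HG and -4.93 in LG, at least 19.4-fold higher in HG (adjusted p 9.9e-12). Hfe (2.55 ± 0.17), which binds transferrin receptors, and the iron exporter Slc40a1 (2.40 ± 0.29) were higher as well. The main transferrin receptor Tfrc (-1.25 ± 0.28) and the zinc and iron importer Slc39a14 (-1.05 ± 0.26) were lower. The 2 transferrin receptors therefore differed in opposite directions.

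Of 13 regulators of Alas1 and heme genes, 5 were higher and 1 lower in adult HG, with a median of 0.85. Ppargc1a, a coactivator that raises Alas1 in fasted liver, was higher (1.98 ± 0.41), as was Hif1a (2.28 ± 0.28), a factor of the response to low oxygen. Nr1i2, a xenobiotic receptor, was not well above background on the LG arrays. It averaged -1.92 in HG and -4.98 in LG, at least 2.16-fold higher in HG. Bach1, a repressor that heme releases from its targets, was lower (-0.67 ± 0.16). Nrf1, named here for its motif, gave -0.38 ± 0.25 and was not called.

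Adult HG against embryonic HG epithelium set the mature gland beside its own epithelium before birth. In adult HG 7 of the 9 genes were higher and 0 were lower, while Fech and Alas2 were not called. Of all genes 70.3 percent were called, 34.4 percent higher and 35.9 percent lower, and the median difference was 2.44 over the 9 genes and 0.04 over all genes. The comparison shares the adult HG arrays with that of the adult glands.

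Alas1 differed most: 8.0, 8.18 and 8.04 in adult HG, against 3.93, 3.69 and 3.91 in embryonic HG epithelium, a difference of 4.23 ± 0.13 (18.7-fold, adjusted p 3.97e-15). The other Alas1 probe differed by 3.80 ± 0.19. Embryonic levels of Alas1 by the brighter probe ranged over 3.51 to 4.10 in the 6 separated tissues, with the small differences given below.

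Urod gave 8.41, 8.61 and 9.15 in adult HG, against 4.93, 4.68 and 5.03 in embryonic HG epithelium, a difference of 3.84 ± 0.21 (14.3-fold). Alad gave 4.72, 5.41 and 5.11, against 2.0, 2.11 and 1.98 in embryonic HG epithelium, a difference of 3.05 ± 0.16 (8.28-fold). Uros gave 4.10, 4.21 and 5.05, against 2.01, 1.78 and 2.24 in embryonic HG epithelium, a difference of 2.44 ± 0.22 (5.43-fold). No adult HG array of these 3 genes overlapped the embryonic ones, as was the case for 68.1 percent of all genes.

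Cpox differed by 1.85 ± 0.25, with 2.15, 1.52 and 2.0 in embryonic HG epithelium, and Ppox by 1.15 ± 0.27, with 2.04, 2.25 and 2.14 in embryonic HG epithelium. For Ppox the difference was 0.40 within slide 1 and 1.48 and 1.58 within slides 2 and 3. Adult HG replicate 1 on slide 1 is again the low array.

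Fech gave 3.31, 3.67 and 3.91 in adult HG, against 3.63, 3.32 and 3.56 in embryonic HG epithelium. The groups overlapped, and the difference of 0.13 ± 0.20 had an interval of -0.28 to 0.54 (adjusted p 0.568). Alas2 gave 2.82, 2.61 and 0.74 in adult HG, against 2.62, 1.68 and 2.36 in embryonic HG epithelium, overlapping as well (-0.16 ± 0.54, adjusted p 0.796), and the erythroid sum was 6.74 to 9.01 in adult HG and 8.67 to 9.61 in embryonic HG epithelium.

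Abcg2 gave 6.54, 6.57 and 6.73 in adult HG, against 2.60, 2.46 and 2.76 in embryonic HG epithelium, a difference of 4.0 ± 0.17 (16-fold, adjusted p 3.67e-13). No adult array overlapped the embryonic ones, and embryonic HG epithelium lay between adult HG and adult LG for this gene. Endothelial markers were higher in adult HG for 8 of 12 genes and lower for 0, with sums of 5.04 to 6.19 in adult HG and 4.87 to 5.01 in embryonic HG epithelium, and mesenchymal markers were higher for 4 and lower for 5 of 14. Their part in the Abcg2 difference was not tested.

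**Figure D3:**
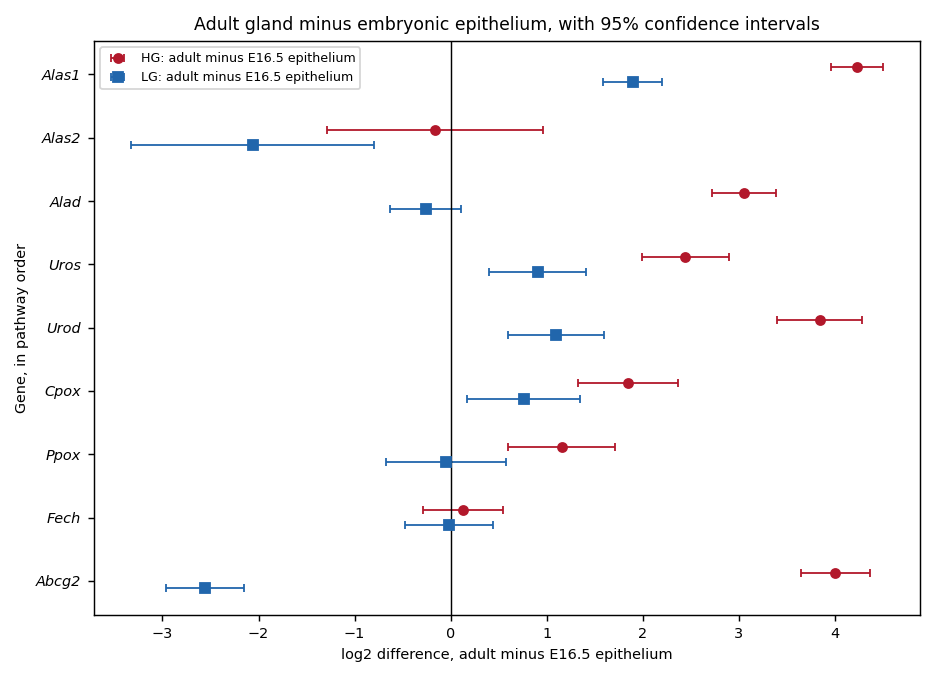
Adult gland minus embryonic epithelium of the same gland, as a log2 difference on the horizontal axis, for each gene in pathway order, with 95% confidence intervals. In HG the points lie at 1.15 to 4.23 for Alas1, Alad, Uros, Urod, Cpox, Ppox and Abcg2, whereas in LG Abcg2 lies at -2.56 and Fech at -0.02.

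The other lists showed more genes higher than lower in adult HG against embryonic HG epithelium in 4 of 4 cases. Of all genes 34.4 percent were higher and 35.9 percent lower. The regulators, however, were 5 higher and 3 lower of 13, with a median difference of 0.01, against 0.04 over all genes. Of the other heme pathway genes 12 of 16 were higher and 2 lower, led by Tspo (5.27 ± 0.19), Tmem14c (3.46 ± 0.19) and Iscu (2.75 ± 0.21). The lower ones were Slc25a37 (-0.65 ± 0.27) and Suclg2 (-1.32 ± 0.23), a subunit of succinyl-CoA synthetase. Tmem14c and Tspo were thus higher in adult HG than in both adult LG and embryonic HG epithelium.

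Of the heme and porphyrin handling genes 12 of 18 were higher and 1 lower. Abcc3 (6.23 ± 0.25), an organic anion efflux pump, Slc46a1 (4.83 ± 0.16) and Hmox1 (4.40 ± 0.28), the inducible enzyme that degrades heme, were the highest, and Slc15a2 (-1.19 ± 0.36), a peptide transporter that also takes up 5-aminolevulinic acid, was the lower one. Immune marker sums were 4.90 to 7.57 in adult HG and 3.21 to 3.74 in embryonic HG epithelium, and their part in the Hmox1 value was not tested.

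Of 15 measured iron supply genes 9 were higher and 3 lower, with Tfr2 (5.51 ± 0.28), the iron carrier Trf (3.53 ± 0.35) and Hfe (3.47 ± 0.15) the highest, and Slc39a14 (-1.98 ± 0.23), the iron chaperone Pcbp1 (-1.56 ± 0.20) and Tfrc (-1.10 ± 0.25) the lowest. Of 13 regulators 5 were higher and 3 lower. Nr1d1, a heme-binding repressor of the circadian clock, was higher (3.89 ± 0.37), as was Esrra (1.57 ± 0.22), a partner of Ppargc1a. In embryonic HG epithelium Nr1d1 averaged -3.96 and was well above background on 2 of 3 arrays, so the size of its difference is uncertain. Nr1i2 averaged -1.92 in adult HG and -6.39 in embryonic HG epithelium, where it was not well above background, at least 6.99-fold higher in adult HG. Egr1 (-2.22 ± 0.70), Nrf1 (-1.69 ± 0.23) and Bach1 (-0.75 ± 0.14) were lower.

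Against embryonic HG mesenchyme, 7 of the 9 genes were higher in adult HG and 2 were lower, where 69.1 percent of all genes were called, 32.9 percent higher and 36.2 percent lower. The higher genes were Abcg2, Alad, Alas1, Cpox, Ppox, Urod and Uros, with differences of 0.97 ± 0.27 for Ppox to 4.28 ± 0.21 for Urod. Alas2 (-3.07 ± 0.54) and Fech (-1.14 ± 0.20) were lower in adult HG. Ppox overlapped between the groups (2.44 on HG replicate 1, against 2.16, 2.45 and 2.37 in HG mesenchyme) and was not called with only these 2 groups in the fit (adjusted p 0.0571), which left 6 higher. The erythroid sum was 6.74 to 9.01 in adult HG and 10.46 to 11.34 in HG mesenchyme, and none of the 19 measured erythroid markers was higher in adult HG while 15 were lower.

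In LG the same comparison by age gave another picture. Against embryonic LG epithelium, 4 of the 9 genes were higher in adult LG (Alas1, Urod, Uros and Cpox) and 2 were lower (Abcg2 and Alas2), where 70.2 percent of all genes were called, 30.9 percent higher and 39.3 percent lower. Alas1 gave 5.76 and 5.41 in adult LG, against 3.82, 3.51 and 3.74 in embryonic LG epithelium, without overlap (as for 76.9 percent of all genes), a difference of 1.89 ± 0.14 (3.71-fold). The other Alas1 probe gave 1.05 ± 0.21. Urod (2.14-fold), Uros (0.90 ± 0.24) and Cpox (0.76 ± 0.28) were called with the 75th percentile but not with median scaling, under which only Alas1 was higher and 3 genes were lower. That scaling put the median of all genes at -0.59, against -0.12 with the 75th percentile.

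Abcg2 gave 0.18 and -0.66 in adult LG, against 2.20, 2.28 and 2.49 in embryonic LG epithelium, a difference of -2.56 ± 0.19 (adjusted p 1.24e-09). For Abcg2 adult HG was thus the highest of all 8 groups and adult LG the lowest. Fech gave 3.20 and 3.72 in adult LG, against 3.78, 3.41 and 3.24 in embryonic LG epithelium, with overlap (-0.02 ± 0.22). Alad (-0.26 ± 0.18) and Ppox (-0.05 ± 0.30) were not called, and Alas2 (-2.06 ± 0.60) was lower, with erythroid sums of 6.91 to 7.01 in adult LG and 8.91 to 10.01 in embryonic LG epithelium. Without adult LG replicate 2, the array with the fewest spots above background, 2 genes were higher and 2 lower, and without LG epithelium replicate 2, 3 were higher and 2 lower.

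Of the listed genes in adult LG against LG epithelium, 6 of 16 other heme pathway genes were higher and 0 lower, with Abcb6 (2.79 ± 0.16) and Tspo (2.17 ± 0.21) the highest. Heme and porphyrin handling genes were 10 higher and 7 lower of 18, iron supply genes 5 higher and 6 lower of 15, and regulators 2 higher and 7 lower of 13. Against LG mesenchyme, 4 of the 9 genes were higher in adult LG and 3 lower (Abcg2, Alas2 and Fech), where 70.5 percent of all genes were called, 32.3 percent higher and 38.2 percent lower. With median scaling 1 was higher and 4 lower.

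Whether the difference of adult gland from embryonic epithelium was unlike in HG and LG was tested directly. This difference of differences was adult minus embryonic epithelium in HG minus the same in LG, so both age and makeup enter it. It was positive and called for 7 of the 9 genes, where 45.3 percent of all genes were called, 27.4 percent positive and 17.9 percent negative. It was 6.56 ± 0.26 for Abcg2, 3.31 ± 0.24 for Alad, 2.74 ± 0.32 for Urod, 2.34 ± 0.19 for Alas1, 1.54 ± 0.32 for Uros, 1.20 ± 0.40 for Ppox and 1.09 ± 0.37 for Cpox. Fech (0.15 ± 0.30, adjusted p 0.717) and Alas2 (1.90 ± 0.80, adjusted p 0.0632) were not called. The values for Cpox and Ppox were not called without adult LG replicate 1 (adjusted p 0.124 and 0.0662) nor without adult HG replicate 3 (adjusted p 0.0581 and 0.0513). Cpox was also not called without HG epithelium replicate 2 (0.0669) or LG epithelium replicate 3 (0.0553), and Ppox without adult HG replicate 2 (0.0529). With only the groups compared in the fit neither was called (0.0981 for Cpox and 0.0743 for Ppox), nor was Cpox with median scaling (0.0829) or Ppox with quantile normalization (0.0595). In turn, Alas2 was called without adult HG replicate 3 (2.56, adjusted p 0.00721) or without LG epithelium replicate 3 (2.35, adjusted p 0.0254), and with normexp background correction (adjusted p 0.0416) or median scaling (adjusted p 0.0324). Endothelial markers had a positive difference of differences for 7 of 12 genes and a negative one for 0, beside the value of Abcg2, and their part was not tested. Among the lists, the difference of differences was positive for 6 and negative for 4 of 16 other heme pathway genes, for 11 and 4 of 18 handling genes, for 7 and 2 of 15 iron supply genes and for 4 and 1 of 13 regulators.

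No difference in these genes was called between the epithelia of the 2 glands at embryonic day 16.5. Between HG and LG epithelium 0 of the 9 genes were called, where 6.44 percent of all genes were called, 3.44 percent higher and 3 percent lower, and 1 gene, Cpox (0.55 ± 0.25), had an unadjusted p under 0.05. Every alternative setting in limma also gave 0. The intervals limited a difference to within -0.12 to 0.43 for Alas1, -0.51 to 0.16 for Alad, -0.39 to 0.44 for Fech, -0.08 to 0.64 for Abcg2, -0.57 to 0.34 for Uros, -0.12 to 0.77 for Urod and -0.48 to 0.64 for Ppox. The limits were wider for Cpox (0.03 to 1.08) and Alas2 (-1.10 to 1.15), which hold differences of over 2-fold. Outside the marker lists, only Abcc3 (-1.48 ± 0.25) and Tfr2 (-1.78 ± 0.28) of the listed genes were called. Both were lower in HG epithelium, opposite to their direction in the adult glands (3.49 ± 0.28 for Abcc3). Mesenchymal markers were higher in HG epithelium for 6 of 14 genes and lower for 0. Their median difference was 1.09, against -0.005 over all genes. Their sums overlapped, at 7.41 to 8.28 in HG epithelium and 7.10 to 7.55 in LG epithelium. Of endothelial markers 0 of 12 were called. The part of mesenchymal cells in the values of the 9 genes was not tested.

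Between HG and LG mesenchyme 2 of the 9 genes were lower in HG, Alad (-0.64 ± 0.16) and Fech (-0.65 ± 0.20), where 14.5 percent of all genes were called, 7.9 percent higher and 6.59 percent lower. Alad gave 1.58, 1.76 and 1.65 in HG mesenchyme, against 2.38, 2.26 and 2.27 in LG mesenchyme, and Fech gave 4.65, 4.63 and 5.02 in HG mesenchyme, against 5.59, 5.33 and 5.34 in LG mesenchyme, neither with overlap, as for 44 percent of all genes. With median scaling neither was called, and the Fech call was lost without any 1 of 5 of the 6 arrays (adjusted p 0.0591 to 0.126).

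Between HG and eyelid epithelium 3 of the 9 genes were higher in HG, Alas2 (2.19 ± 0.54), Abcg2 (1.46 ± 0.17) and Urod (0.59 ± 0.21), and Fech was lower (-0.64 ± 0.20), where 45.2 percent of all genes were called, 27 percent higher and 18.2 percent lower. Abcg2 gave 2.60, 2.46 and 2.76 in HG epithelium, against 1.1, 1.30 and 1.02 in eyelid epithelium, and Fech gave 3.63, 3.32 and 3.56 in HG epithelium, against 4.16, 4.04 and 4.24 in eyelid epithelium, without overlap, as for 56.7 percent of all genes. Endothelial markers were higher in HG epithelium for 8 of 12 genes and lower for 0, beside the higher Abcg2, and their part was not tested. With median scaling Abcg2 and Alas2 remained called and Urod and Fech did not. The Urod call was lost without 4 of the 6 arrays in turn (adjusted p 0.0777 to 0.106, HG replicates 1 and 3 and eyelid replicates 1 and 2) and the Fech call without HG replicate 2 (0.0538). The erythroid sum was 8.67 to 9.61 in HG epithelium and 7.16 to 8.07 in eyelid epithelium, beside the higher Alas2 of HG epithelium.

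**Figure D4:**
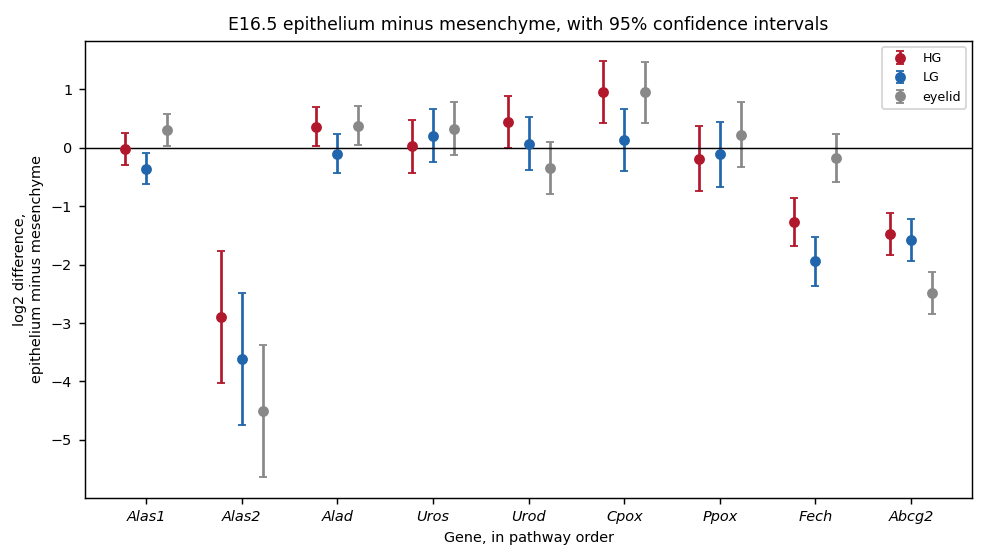
Epithelium minus mesenchyme at embryonic day 16.5 in HG, LG and eyelid, as a log2 difference on the vertical axis, for each gene in pathway order, with 95% confidence intervals. Alas2 and Abcg2 lie below 0 in 3 of 3 tissues, and Fech lies at -1.27 in HG, -1.94 in LG and -0.17 in eyelid.

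In embryonic HG and LG the widest differences between epithelium and mesenchyme were those of Alas2, Abcg2 and Fech, and in eyelid those of Alas2, Abcg2 and Cpox. In HG, Cpox was higher in epithelium (0.96 ± 0.25) and Alas2 (-2.90 ± 0.54), Abcg2 (-1.48 ± 0.17) and Fech (-1.27 ± 0.20) were lower, where 58.4 percent of all genes were called, 30.1 percent higher and 28.3 percent lower. With the replicate number as a block, 3 genes were higher in HG epithelium, because Alad (0.37, adjusted p 0.0437) and Urod (0.44, adjusted p 0.0429) were then called. In LG 0 genes were higher in epithelium and 4 were lower, Alas2 (-3.61 ± 0.54), Fech (-1.94 ± 0.20), Abcg2 (-1.57 ± 0.17) and Alas1 (-0.35 ± 0.13), where 59.1 percent were called, 32.4 percent higher and 26.7 percent lower. The Alas1 call was not seen with its other probe (adjusted p 0.168), with median scaling, or without LG epithelium replicate 2 or LG mesenchyme replicate 1 or 3 (adjusted p 0.0584 to 0.119). In eyelid Cpox was higher in epithelium (0.95 ± 0.25) and Alas2 (-4.50 ± 0.54) and Abcg2 (-2.48 ± 0.17) were lower, where 51.7 percent were called, 25.9 percent higher and 25.8 percent lower. The Cpox call in eyelid was lost with median scaling (0.89, adjusted p 0.0885). With the replicate block Alad (0.38, adjusted p 0.0395) and Alas1 (0.31, adjusted p 0.0354) were higher too.

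Alas2 gave 2.62, 1.68 and 2.36 in HG epithelium, against 4.85, 5.04 and 5.48 in HG mesenchyme. It gave 3.41, 1.90 and 1.29 in LG epithelium, against 6.16, 5.66 and 5.62 in LG mesenchyme. It gave -0.74, 0.41 and 0.43 in eyelid epithelium, against 3.87, 4.91 and 4.84 in eyelid mesenchyme. The highest epithelial array, LG replicate 1, lay below every mesenchyme array. The erythroid sum was 7.16 to 10.01 in the epithelia and 10.43 to 11.34 in the mesenchymes, and LG epithelium replicate 1 was the epithelial array with the highest sum. Of 19 measured erythroid markers 15 were lower in HG epithelium, 17 in LG epithelium and 13 in eyelid epithelium than in the mesenchyme of the same tissue. Between 16 and 19 of them were well above background on mesenchyme arrays. The part of blood cells in the Alas2 values was not tested.

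**Figure D5:**
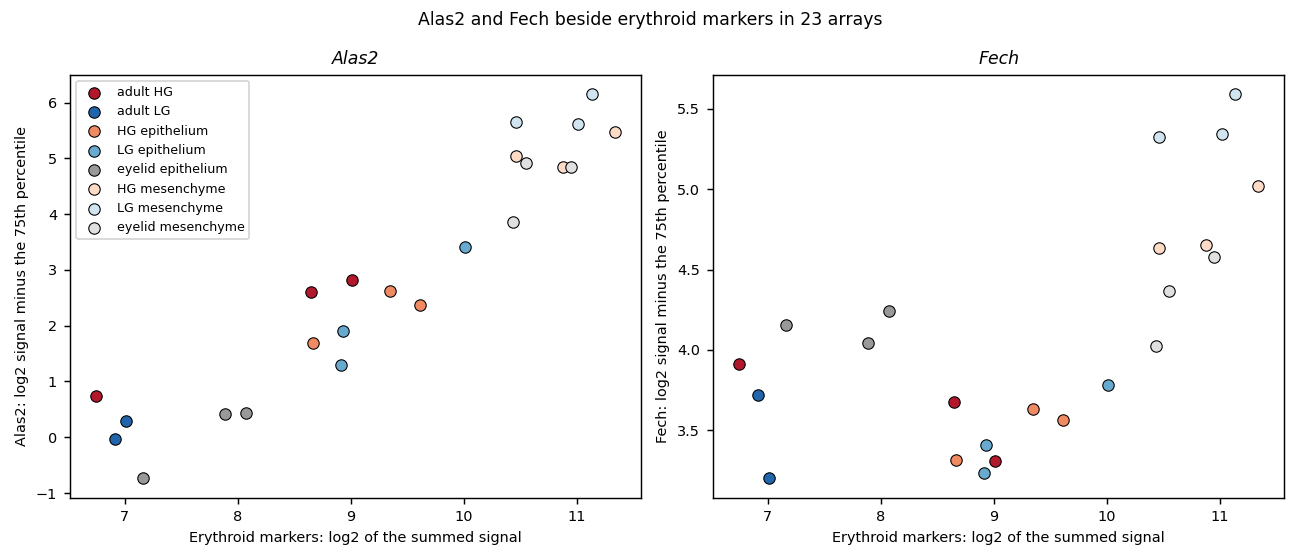
Alas2 (left) and Fech (right) on each of 23 arrays against the summed signal of erythroid markers, both axes on a log2 scale, coloured by group. Alas2 is high where the erythroid sum is high, and the low adult HG array at 0.74 has an erythroid sum of 6.74. Fech is highest in LG mesenchyme, but eyelid epithelium holds 4.04 to 4.24 at low erythroid sums.

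Fech, which erythroid cells also make in quantity, was lower in epithelium than in mesenchyme in HG and LG but not called in eyelid (-0.17 ± 0.20). The F test of whether the compartment difference depends on the tissue was called for 3 of the 9 genes, Fech (F 20.6, adjusted p 0.000178), Abcg2 (F 10.4, adjusted p 0.00416) and Alas1 (F 6.64, adjusted p 0.0202), where 42.9 percent of all genes were called. Fech gave 4.16, 4.04 and 4.24 in eyelid epithelium, against 4.02, 4.37 and 4.58 in eyelid mesenchyme, with overlap, and eyelid mesenchyme also held more epithelial marker signal than the other mesenchymes. For Abcg2 the difference was wider in eyelid than in the glands, and eyelid epithelium was the lowest embryonic group. The endothelial sum was 3.89 to 5.01 in the epithelia and 6.02 to 6.87 in the mesenchymes, beside the higher Abcg2 of the mesenchymes, and its part was not tested. The Alas1 result was not called with the other probe (adjusted p 0.294) with median scaling (F 0.888), or without LG or eyelid epithelium replicate 2 (adjusted p 0.0565 and 0.0581). With median scaling Fech alone was called.

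Of the listed genes in embryonic HG, 6 of 16 other heme pathway genes were higher and 5 lower in epithelium than in mesenchyme, with Slc25a37, the erythroid iron importer, lower (-0.96 ± 0.27). Handling genes were 6 higher and 9 lower of 18, with Hmox1 among the lowest (-3.60 ± 0.28), beside immune sums of 3.21 to 3.74 in HG epithelium and 6.22 to 6.44 in HG mesenchyme. Iron supply genes were 5 higher and 7 lower of 15, with Tfrc the highest (4.01 ± 0.25) and Slc40a1 the lowest (-3.62 ± 0.26). Regulators were 5 higher and 3 lower of 13.

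The order of the 8 groups is given as a description. The shares of all genes with adult HG highest, or clear of the next group, were not computed. Adult HG was the highest group for 7 of the 9 genes, and adult LG came next for Alas1, Uros, Urod and Cpox. Adult HG did not overlap its nearest group for these genes except for Ppox. The 6 embryonic groups followed close together for Alas1 and Uros, where each overlapped its neighbour. For Fech the order was LG, HG and eyelid mesenchyme, then eyelid epithelium, which overlapped eyelid mesenchyme, and then adult HG, HG epithelium, LG epithelium and adult LG, at means of 3.63, 3.50, 3.48 and 3.46, where each overlapped the next. For Alas2 the mesenchymes led at means of 5.81, 5.13 and 4.54, and adult LG (0.14) and eyelid epithelium (0.03) were the lowest. The range of the group means was 6.85 for Abcg2, 5.78 for Alas2, 4.43 for Urod and Alas1, and 1.52 for Ppox, the narrowest.

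For the 3 genes with the widest ranges, the genes with the most similar pattern over the 23 arrays were looked up among genes whose own group means span at least 1. For Abcg2 they were Epb41l2, Ugdh and Eci2 (Pearson r 0.949, 0.947 and 0.945). For Alas2 they were Zdhhc22, the hemoglobin gene Hbb-b2 and Trim10, which is on the erythroid marker list (r 0.980, 0.966 and 0.958). For Urod they were Spg20, Tmco1 and Lpcat3 (r 0.984 for each). The arrays of a group are not independent points, and a wide gap between adult HG and the other groups alone gives such values, so the correlations are descriptions without a test.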

How the data were processed

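Each deposited array file lists spots with a linear intensity that had been background-subtracted by the scanner software, per the file headers (gProcessedSignal). Agilent Feature Extraction 11.5.1.1 is named per the submitters' processing notes, while per the file headers slide 1, with all replicates numbered 1 except that of adult LG, was read with version 11.0.1.1. The deposited series matrix also holds intensity and matched the scanner values of each probe (SD of the log2 ratio at most 0.0425), so the authors had not scaled it between arrays. Outlier spots were left out (134 probe values missing, none of these genes fitted from imputed values), spots of a probe were averaged, and log2 minus the array's 75th percentile was used. Of 55681 probes 26056 matched 19752 symbols by RefSeq accession, and 29625 were not named. A gene was kept where a 0.5 share or more of its spots passed the scanner's background test on all arrays of 1 group or more, and its brightest probe stood for it.

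All 23 arrays entered 1 limma 3.58.1 fit in R 4.3.3 (with data.table in version 1.17.8, pandas 2.3.3, numpy 2.4.6, matplotlib 3.10.9), two-sided, with Benjamini-Hochberg adjustment over 15814 genes. Precision is limited by the number of arrays. On data simulated for the adult comparison (15784 genes), 44 percent of 100 changes of log2 1 and 89 percent of 100 of log2 2 were recovered. No other gene was changed in the simulation, whereas 55.9 percent of genes were called in the real adult comparison. The Benjamini-Hochberg cutoff therefore differed, and these rates are not those of the real data. Replicate numbers in the labels were checked as pairs: residuals of same-numbered arrays correlated above 0.1 in every pair of the embryonic comparisons (0.153 to 0.575) and of adult HG against HG mesenchyme, but not of the other adult ones (lowest -0.347), and number equals slide in all groups but adult LG. Alternatives were background correction, scaling, probe filter, probe, slide or replicate block, fewer groups and left-out arrays.

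The 9 genes, the 4 gene lists and the 9 marker lists were chosen with earlier results of these data known. From each list the up to 3 highest and 3 lowest called genes were named in the 2 comparisons of adult HG with adult LG and with HG epithelium, and at most 2 each elsewhere. Some genes are not reported here, and they were left out of the lists and their counts.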

Additional observations from a re-analysis of the deposited data

Results flagged for a closer look

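Between HG and LG the change from embryonic epithelium to adult gland differed for 7 of the 9 genes, by a test of the difference itself in limma. That test called 45.3 percent of all genes. The difference of differences was 6.56 for Abcg2, 3.31 for Alad, 2.74 for Urod, 2.34 for Alas1, 1.54 for Uros, 1.20 for Ppox and 1.09 for Cpox, all on the log2 scale and all positive. Cpox was not called under 6 of the alternatives and Ppox under 5, among them the fit of only the groups compared for both, median scaling for Cpox and quantile normalization for Ppox.

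Among the 3 embryonic tissues the difference between epithelium and mesenchyme varied for 3 of the 9 genes by an F test, with F of 20.6 for Fech, 10.4 for Abcg2 and 6.64 for Alas1. Of all genes 42.9 percent were called by the F test, a larger share. With median scaling Abcg2 and Alas1 were not called (adjusted p 0.073 and 0.645), nor was Alas1 with its other probe (adjusted p 0.294). In eyelid, the Fech arrays of epithelium and mesenchyme overlapped, and in HG and LG they did not, as for 70.4 and 69 percent of all genes.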

How the results depend on the processing

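Of 2299 values of the 9 genes under alternatives, 2108 kept direction and call or stayed within the array spread, 51 lost and 29 gained a call, 111 within-slide values moved by more than the spread, and 0 called values reversed. The counts of called genes moved by more than 1.5 times in 4 comparisons. Epithelium against mesenchyme in eyelid gave 5 with the slide or replicate block in place of 3. HG against eyelid epithelium gave 2 with median scaling in place of 4. HG against LG mesenchyme gave 0 with median scaling and 1 to 2 with an array left out in place of 2. The F test gave 1 with median scaling, 5 with quantile normalization or the slide block and 6 with only the groups compared, in place of 3. The other counts stayed within 1.5 times. Adult HG against adult LG gave 6 to 8, where Alas2 and Ppox were not called with only the groups compared. Adult HG gave 7 against its epithelium and 8 to 9 against its mesenchyme, adult LG 4 to 6 and 5 to 8, and the difference of differences 5 to 8. Epithelium against mesenchyme gave 4 to 6 in HG and 3 to 4 in LG, and HG against LG epithelium gave 0. The replicate block changed no other call than those given beside their results. The causes were not tested.

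Over all genes, adult HG against LG gave 8833 calls and 4240 with only the groups compared, HG against LG epithelium 1019 and 617 with median scaling, HG against LG mesenchyme 2292, 1198 with median scaling and 4260 with only the groups compared, and the F test 6790 and 3867 with median scaling. Adult HG against LG had 5312 genes higher and 3521 lower, but 4986 and 5172 with normexp, 4817 and 1814 with median scaling and 5278 and 5413 without the filter, as the median of all genes moved from 0.14 to -0.04, 0.39 and -0.13. Adult LG against its epithelium had 4891 and 6208, but 3085 and 6795 with median scaling and 8013 and 6189 without the filter, and against its mesenchyme 5109 and 6046, but 3226 and 6269, and 8139 and 6031. The difference of differences had 4335 positive and 2826 negative, but 4267 and 4431 with normexp, 3425 and 1397 with median scaling and 4288 and 4617 without the filter. Normexp was run on median spot signals, chosen after seeing the files. Mean spot signals were not used here. Low signal limits the adult arrays, where 49.4 to 58.6 percent of spots in HG and 50.3 and 42.4 percent in LG were well above background.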
